A study of Caenorhabditis elegans with 14 samples.

Results

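The mir-35 family of the nematode Caenorhabditis elegans comprises the microRNAs mir-35 to mir-42, the 8 of 224 measured microRNA genes, and of 45510 measured genes in all, that carry those locus names. MicroRNAs are cut by Drosha and Dicer from a hairpin precursor, and one arm is kept by the Argonaute proteins ALG-1 and ALG-2, which use its seed to find and silence messenger RNAs. All members of this family carry the same seed on the 3′ arm of the hairpin. They are loaded by the mother and made in the early embryo, where they are among the most abundant microRNAs, and they decay sharply as the animal hatches through a pathway that needs the ubiquitin ligase adaptor EBAX-1. Animals without the family die as embryos, and known targets are the cell death activator egl-1, the sex determination regulators sup-26 and nhl-2, and lin-23, which restrains cell division.

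Small RNA of 20 to 30 nt was sequenced in 9 of the 14 libraries of the series, all labelled as embryos, with 1 library for each group and so no replicates. The 4 NRDE-3 libraries held RNA pulled down with an anti-FLAG antibody from embryos carrying 3xflag::gfp::nrde-3. NRDE-3 is an Argonaute of nuclear siRNAs, not a known carrier of microRNAs. They came from eri-1(mg366);3xflag::gfp::nrde-3 after cold shock, 3xflag::gfp::nrde-3 in the N2 background after cold shock, and eri-1(mg366);3xflag::gfp::nrde-3 with and without ultraviolet light (UV). The 5 total libraries came from susi-1(R457H), cold-shocked N2, eri-1(mg366);3xflag::gfp::nrde-3 with UV and without UV, and wild-type N2. The labels of the total libraries of susi-1(R457H), cold-shocked N2 and N2 name no transgene, so the eri-1 libraries differ from N2 by the transgene as well. Embryos given cold shock spent 12 h at 4 °C and then 2 h at 20 °C, and those given UV received 50 mJ/cm2 and then 2 h at 20 °C. The other libraries were kept at 20 °C. ERI-1 is an exonuclease needed for one class of endogenous siRNAs, and susi-1 is disl-2, which resembles DIS3L2, an exonuclease of uridylated RNA. The sources used here give neither the promoter that drives the transgene nor the stage of the bleached embryos. The design set these libraries against each other to follow siRNAs against ribosomal RNA (rRNA), and the family is described here over the same pairs.

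Of the members, 7 lie in a single cluster and the eighth stands apart. The genes mir-35 to mir-41 span 797 nt of the forward strand of chromosome II, at II:11537608-11538404 (build WBcel235). They lie within the span of the protein-coding gene Y62F5A.9, which is read from the reverse strand (II:11535141-11538841). Within the cluster mir-35 comes first (II:11537608-11537704). It is followed by mir-36 (II:11537713-11537809), mir-37 (II:11537833-11537930), mir-38 (II:11537933-11538027), mir-39 (II:11538089-11538175), mir-40 (II:11538184-11538275) and mir-41 (II:11538308-11538404). The gene mir-42 (II:11889811-11889905) begins a second cluster 351406 nt further on, with mir-43 (II:11889910-11890007) and mir-44 (II:11890023-11890118), which are not members. All 8 annotated 3′ arms are 22 nt long. Annotated non-coding RNAs of the same strand overlap mir-35 (Y62F5A.16), mir-36 and mir-37 (Y62F5A.14) and mir-39 (Y62F5A.15), with at most 47 sense reads in a library. The non-coding RNA ZK930.12 lies opposite mir-42 and mir-43, and reads antisense to it, which lie on the strand of mir-42, numbered up to 356, so the counts of mir-42 may leave some of its reads out.

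Reads assigned to genes numbered from 4013277 to 10349062 in a library. Of these, 51.8% to 95.6% were rRNA, and 357435 to 3123387 were not. Levels of the family are given in 2 ways, as reads per 1000000 non-rRNA reads (CPM) and as a share of all microRNA reads, which numbered from 15193 to 1233314. Intervals in brackets are 95% intervals of counting error alone, exact binomial for shares and exact conditional binomial for ratios. They do not cover differences between cultures or PCR duplication, and the labels name no molecular identifiers. No p-value can be had from 1 library against 1 other. The NRDE-3 libraries of eri-1 with and without UV stand apart from the rest. Of their entries with a sense read, 23.1% with UV and 14.5% without UV held fewer than 10 reads, against 50.3% to 89.6% in the other 7 libraries. Intervals that rest on either library may be too narrow, and the part of this in the results below was not tested. The sources used here do not say how reads that match several members were divided, and members are similar in sequence, so reads may be shared among them.

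The embryo label was checked against microRNAs that are low in embryos and abundant in larvae. The 5 measured (lin-4, let-7, mir-84, mir-241 and mir-237) took from 0.0156% of microRNA reads in eri-1 with UV to 1.77% in cold-shocked N2, against 0.101% in N2. In cold-shocked N2 247 of the 316 reads were let-7. The muscle microRNA mir-1 had 2167 reads in cold-shocked N2, 12.1% of its microRNA reads, against 10 reads (0.00474%) in N2. The same 5 took 1.23% in the NRDE-3 library of cold-shocked eri-1, 1.17% in that of cold-shocked N2, 0.994% in that of eri-1 with UV and 0.0973% in that of eri-1 without UV. All of these were let-7 in the NRDE-3 libraries of the UV experiment, with 477 reads with UV and 182 without. In total susi-1(R457H) the same 5 took 0.270%, with 130 reads, of which 129 were let-7. Larval microRNA thus took a larger share than in N2 in total susi-1(R457H), total cold-shocked N2 and 3 of the NRDE-3 libraries. The exception among the NRDE-3 libraries was that of eri-1 without UV. The part of these differences in the results below was not tested.

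All 8 members were detected in all 9 libraries, and the family made up from 3.01% to 70.9% of microRNA reads. Among the NRDE-3 libraries, the family had 10771 reads in eri-1 after cold shock (30134 CPM, 70.9% of microRNA reads, 70.2 to 71.6) and 10666 in cold-shocked N2 (5517 CPM, 40.8%, 40.2 to 41.4). It had 2492 reads in eri-1 with UV (2293 CPM, 5.19%, 5.00 to 5.39) and 5637 in eri-1 without UV (3161 CPM, 3.01%, 2.94 to 3.09). In total RNA, the family had 8772 reads in susi-1(R457H) (13825 CPM, 18.2%, 17.9 to 18.6), 8827 in cold-shocked N2 (23925 CPM, 49.4%, 48.7 to 50.1) and 318559 in eri-1 with UV (101992 CPM, 25.8%, 25.75 to 25.9). Without UV, eri-1 had 100984 reads (71319.5 CPM, 28.1%, 27.97 to 28.3), and N2 had 51289 (47857 CPM, 24.3%, 24.1 to 24.5). The order of the libraries differed between the scales. Over non-rRNA reads the 3 highest were the unshocked total libraries of eri-1 with UV, eri-1 without UV and N2. As a share of microRNA reads the 3 highest were the cold-shocked libraries, with the NRDE-3 library of eri-1 first, and the 3 total libraries at the middle of the order lay within 24.3% to 28.1%. Outside the family, the most abundant microRNA was mir-57 in susi-1(R457H) and N2, with 10203 and 39838 reads. It was mir-58, of the bantam-like family, in cold-shocked N2 (2803 reads) and in the NRDE-3 libraries of eri-1 with UV (19507) and without UV (92145). It was mir-82 in total eri-1 with UV (229753) and without UV (73413), mir-73 in the NRDE-3 library of eri-1 after cold shock (704), and mir-260 in that of cold-shocked N2. There mir-260 alone took 12646 reads, or 48.4% of microRNA reads.

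**Figure D1:**
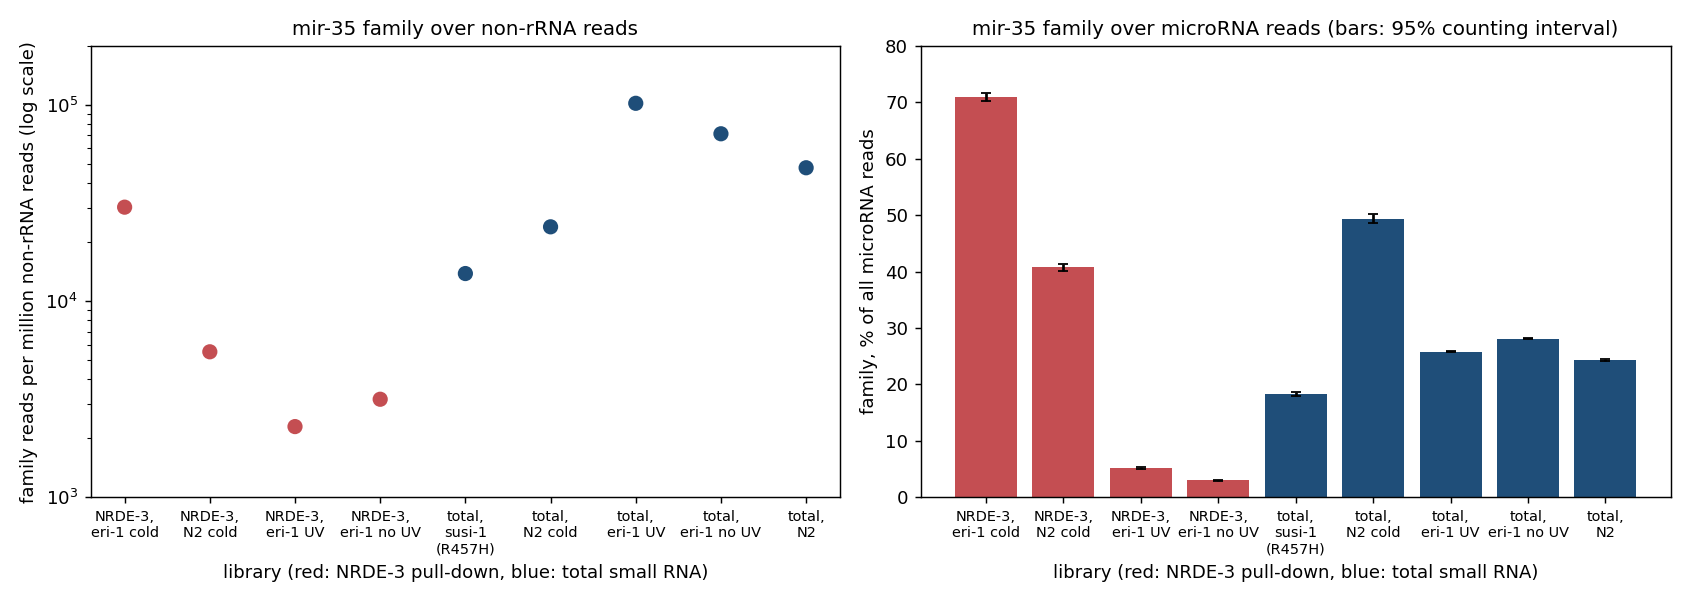
Level of the summed mir-35 family in each of the 9 libraries (1 per group), as CPM over non-rRNA reads on a log axis (left) and as a percentage of all microRNA reads with 95% counting intervals (right). The left panel runs from 2293 CPM in the NRDE-3 library of eri-1 with UV to 101992 CPM in total eri-1 with UV, and the right panel from 3.01% to 70.9%.

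How the family was divided among its members does not depend on the denominator of a library. The share of mir-35 in family reads was 73.3% in the NRDE-3 library of eri-1 after cold shock, 66.5% in that of cold-shocked N2, 13.04% in that of eri-1 with UV and 24.1% in that of eri-1 without UV. In total RNA it was 57.8% in susi-1(R457H), 29.7% in cold-shocked N2, 47.8% in eri-1 with UV and 41.4% in eri-1 without UV. In N2, mir-35 was the main member with 57.4% of family reads (56.96 to 57.8), followed by mir-40 with 21.7%, mir-39 with 11.9% and mir-37 with 7.22%. The other members, mir-36, mir-38, mir-41 and mir-42, made up 1.83% together. In rank over all entries mir-35 came first in 5 libraries and lower in 4. By the 3′ arm entries alone, described below, it also came first in 2 libraries where mir-39 led over all entries. These were total cold-shocked N2 (38.9%, with mir-39 at 29.3%) and the NRDE-3 library of eri-1 without UV (24.4%, with mir-39 at 22.8%).

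The share of mir-40 moved over the widest range of the remaining members. It was 6.08% in the NRDE-3 library of eri-1 after cold shock, 4.76% in that of cold-shocked N2, 37.8% in that of eri-1 with UV and 11.8% in that of eri-1 without UV. In total RNA mir-40 took 22.8% in susi-1(R457H), 2.16% in cold-shocked N2, 36.4% in eri-1 with UV and 43.6% in eri-1 without UV. All 3 cold-shocked libraries, total and NRDE-3, thus lay at 6.08% or less, and the 6 others at 11.8% or more. Reads of mir-40 per read of mir-35 gave the same split, at 0.0829 (0.0765 to 0.0898), 0.0716 (0.0653 to 0.0783) and 0.0730 (0.0627 to 0.0845) in the NRDE-3 library of eri-1, the NRDE-3 library of N2 and total cold-shocked N2. In the other libraries this ratio ran from 0.378 (0.369 to 0.386) in N2 to 2.90 (2.55 to 3.29) in the NRDE-3 library of eri-1 with UV, with 1.05 (1.04 to 1.07) in total eri-1 without UV. Between libraries of the same strain and kind, it was 0.0730 in cold-shocked N2 and 0.378 in N2 for total RNA, and 0.0829 in cold-shocked eri-1 and 0.488 in eri-1 without UV for NRDE-3. With 1 library in each group the ratio has no error from cultures, and the second pair comes from experiments that differ in plates and rests on a library with few low counts.

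The members mir-37 and mir-39 had their largest shares of total RNA in cold-shocked N2. For mir-37 the share was 12.5%, 22.2%, 7.06% and 16.6% in the NRDE-3 libraries of eri-1 after cold shock, cold-shocked N2, eri-1 with UV and eri-1 without UV. In total RNA it was 26.5% in cold-shocked N2 and between 5.98% and 7.22% in the 4 others. For mir-39 the NRDE-3 shares, in the same order, were 6.47%, 5.15%, 17.6% and 24.4%. In total RNA mir-39 took 37.2% in cold-shocked N2 and from 7.27% to 11.9% in the 4 others. It ranked first in total cold-shocked N2 over all entries, but below mir-35 by the 3′ arm entries. The 4 minor members stayed between 1.36% and 4.47% of the family in 7 libraries and reached 24.5% and 23.0% in the NRDE-3 libraries of eri-1 with and without UV. There mir-36 took 9.23% and 15.3%, against 1.08% and 0.883% in total eri-1 with and without UV. The rarest member in total N2 was mir-41, with 14 reads, and mir-41 took 7.95% of the family in the NRDE-3 library of eri-1 with UV, at 198 reads.

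The distance between libraries was taken as the share of family reads that would have to change member to turn one composition into the other. Over all entries, the closest were susi-1(R457H) and N2, 1.66% apart. Next came total eri-1 with and without UV, 7.48% apart, and the NRDE-3 libraries of eri-1 and cold-shocked N2, 9.78% apart. cold-shocked N2 and N2 were 47.3% apart, and the NRDE-3 libraries of eri-1 with and without UV 33.5%. The largest distance, 68.6%, was between the NRDE-3 libraries of cold-shocked N2 and of eri-1 with UV. By the 3′ arm entries alone susi-1(R457H) and N2 would not be the closest. There mir-35 took 72.7% and 59.5%, mir-37 1.37% and 7.94%, and mir-40 10.3% and 18.0%. Total eri-1 with and without UV would lie closer together, with mir-35 at 50.3% and 42.5%, mir-37 at 5.19% and 4.46%, and mir-40 at 34.2% and 44.3%.

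**Figure D2:**
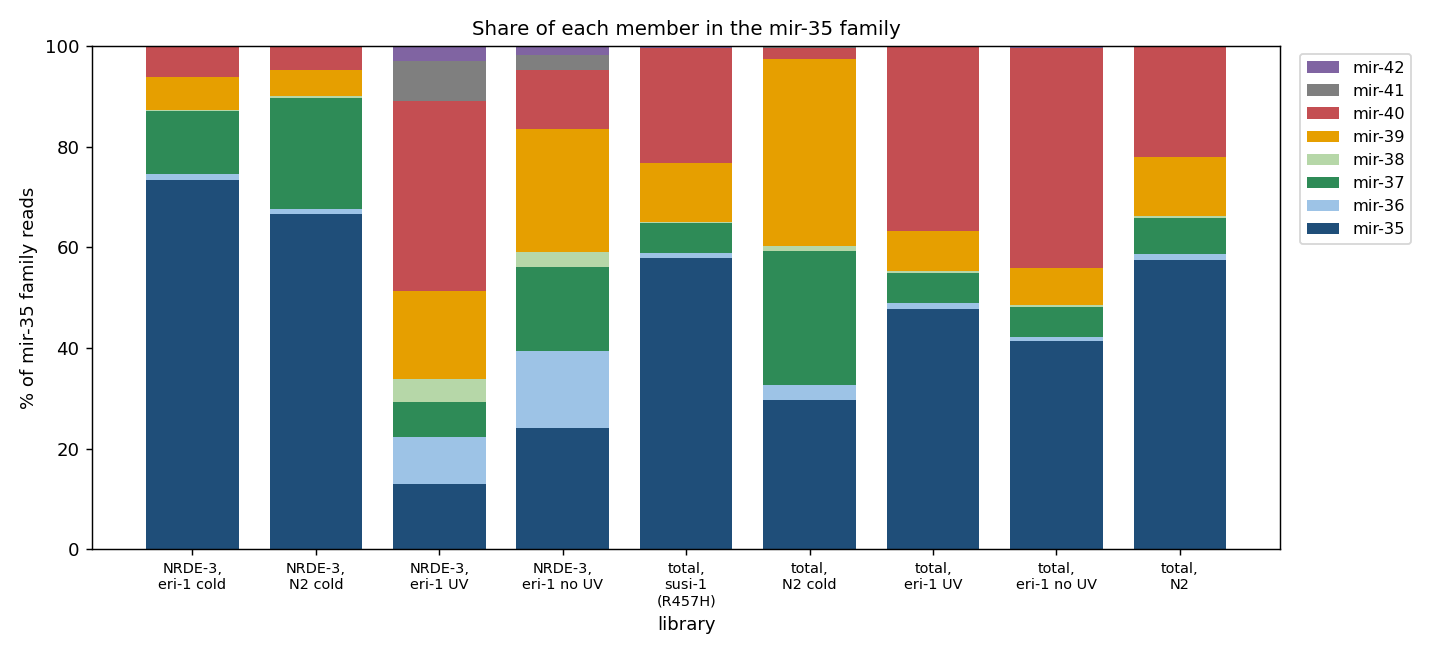
Percentage of mir-35 family reads held by each of the 8 members in each library (stacked bars, 1 library per group). The band of mir-40 is between 2.16% and 6.08% in the 3 cold-shocked libraries and at 11.8% or more in the others, and the minor members are visible mainly in the NRDE-3 libraries of eri-1 with and without UV.

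Each pair of libraries was then compared member by member. A member with 50 or more reads in a pair was called higher or lower where its ratio was 2 or more, or 0.5 or less, with an interval that left out 1. The rule goes by size, is no test, and the same count over all microRNAs is given as the background. The pairs of susi-1(R457H), cold-shocked N2 and eri-1 against N2 share the N2 library.

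In susi-1(R457H) the family sum was lower than in N2 over non-rRNA reads, and so was the sum of all microRNAs (ratio 0.385, 0.381 to 0.389). The family's composition was close to that of N2 over all entries, but not by the 3′ arm entries alone, where mir-37 took 1.37% in susi-1(R457H) and 7.94% in N2. The summed ratio was 0.289 (0.282 to 0.296) over non-rRNA reads and 0.751 (0.734 to 0.768) over microRNA reads. The main member mir-35 had 5070 reads (7991 CPM) in susi-1(R457H) and 29436 reads (27466.5 CPM) in N2, a ratio of 0.291 (0.282 to 0.2997). For mir-40 the counts were 2004 and 11116 reads (ratio 0.305, 0.290 to 0.319), and for mir-39 they were 1031 and 6095 (ratio 0.286, 0.267 to 0.305). Over all entries, all 7 members with enough reads were called lower, with ratios between 0.227 for mir-38 and 0.375 for mir-42. So were 83.7% of 49 microRNAs, and the members' count is near the background. The median log2 ratio of the 7 members was -1.81, against -1.37 for 42 microRNAs outside the family. Over microRNA reads no member was called in either direction over all entries, where 10.2% of microRNAs were higher and 2.04% lower, and the medians were -0.43 for the members and 0.01 for the others. By the 3′ arm entry alone mir-37 had 61 reads against 2008 in N2, mir-38 had 6 against 81 and mir-40 had 460 against 4548. Each of these would then be called lower over microRNA reads. Over non-rRNA reads mir-37 and mir-38 would lie below 0.227. The member mir-41, with 2 and 14 reads, was under the minimum.

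The members did not differ alike between cold-shocked N2 and N2. In cold-shocked N2 mir-40 had 191 reads (518 CPM), against 11116 reads (10372 CPM) in N2, a ratio of 0.0499 (0.0430 to 0.0576) over non-rRNA reads and 0.203 (0.175 to 0.234) over microRNA reads. Its cluster neighbour mir-39 had 3286 reads (8906 CPM), against 6095 reads (5687 CPM), with ratios of 1.57 (1.501 to 1.63) and 6.37 (6.11 to 6.65). For mir-37 the counts were 2337 reads (6334 CPM) and 3703 reads (3455 CPM), with ratios of 1.83 (1.74 to 1.93) and 7.46 (7.08 to 7.86). The neighbouring genes mir-39 and mir-40 thus lay on opposite sides of a ratio of 1, though over all assigned reads, which shift log2 ratios of this pair by -1.97, mir-39 would lie below 1 as well. By the 3′ arm entry alone mir-39 had 1117 reads in cold-shocked N2 and 3101 in N2, which lies near 1 over non-rRNA reads. For mir-35 the counts were 2618 and 29436 reads, with ratios of 0.258 (0.248 to 0.269) over non-rRNA reads and 1.05 (1.0096 to 1.09) over microRNA reads. Over non-rRNA reads 1 of 7 members was called higher (mir-38, 2.32, 1.75 to 3.06) and 3 lower (mir-35, mir-40 and mir-42), against backgrounds of 15.4% higher and 69.2% lower among 52 microRNAs. By the 3′ arm entry alone mir-38 had 40 reads against 81 in N2, and would not be called higher over non-rRNA reads. Over microRNA reads 4 were higher (mir-36, mir-37, mir-38 and mir-39, with ratios from 4.82 to 9.44) and mir-40 alone was lower, against 28.8% and 42.3%. The family's summed ratio was 0.500 (0.489 to 0.511) over non-rRNA reads and 2.03 (1.99 to 2.08) over microRNA reads, so its direction depends on the denominator. The median log2 ratio over non-rRNA reads was 0.25 for the members and -2.82 for 45 microRNAs outside the family.

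In eri-1 without UV, mir-40 was the member that stood farthest from N2 over all entries. It had 44059 reads (31116.5 CPM) in eri-1 and 11116 reads (10372 CPM) in N2, with ratios of 3.00 (2.94 to 3.06) over non-rRNA reads and 2.33 (2.28 to 2.38) over microRNA reads. By contrast mir-35 had 41765 reads (29496 CPM) in eri-1 and 29436 reads (27466.5 CPM) in N2, with ratios of 1.07 (1.06 to 1.09) and 0.834 (0.822 to 0.847). Over non-rRNA reads mir-38 (2.48, 2.02 to 3.07) and mir-42 (2.43, 2.01 to 2.95) were also called higher, which made 3 of 8 members higher and 0 lower. The background was 31.2% higher and 21.9% lower among 64 microRNAs. Over microRNA reads mir-40 alone was called, where 23.4% of microRNAs were higher and 26.6% lower. By the 3′ arm entry alone mir-42 had 198 reads in eri-1 against 33 in N2, and mir-40 had 21546 against 4548. By that entry mir-42 stood farther from N2 than mir-40, and would be called higher over microRNA reads as well. With 211 reads against 81, mir-38 would then not be called higher over non-rRNA reads. The summed ratios were 1.49 (1.47 to 1.51) and 1.16 (1.15 to 1.17). The transgene in eri-1, the strain and the plates without food named in the growth protocol of the UV experiment cannot be told apart in this pair.

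In total eri-1 RNA the size of the difference with UV depended on the scaling. The summed ratio with UV over without UV was 1.43 (1.42 to 1.44) over non-rRNA reads, 0.919 (0.912 to 0.925) over microRNA reads and 3.28 over all assigned reads, so its direction and size depend on the denominator. With UV mir-35 had 152275 reads (48753 CPM), against 41765 reads (29496 CPM) without UV, with ratios of 1.65 (1.64 to 1.67) and 1.06 (1.05 to 1.07). For mir-40 the counts were 115842 reads (37089 CPM) with UV and 44059 reads (31116.5 CPM) without, with ratios of 1.19 (1.18 to 1.21) and 0.766 (0.757 to 0.774). Over non-rRNA reads 1 of 8 members was called higher, mir-41 with 211 against 36 reads (2.66, 1.86 to 3.90), and 0 lower, against 24.1% and 2.41% of 83 microRNAs. Over microRNA reads mir-42 alone was called, lower at 0.485 (0.431 to 0.545), with 769 reads with UV and 462 without, against backgrounds of 6.02% higher and 14.5% lower. The median log2 ratio over non-rRNA reads was 0.63 for the 8 members and 0.69 for 75 microRNAs outside the family.

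In the NRDE-3 libraries after cold shock the family held similar counts in both strains, and its direction was not settled by the scaling. Over non-rRNA reads the ratio of eri-1 over N2 was 5.46 (5.32 to 5.61), but it was 0.706 over all assigned reads, 0.505 with DESeq2 size factors and 0.546 with TMM factors. Over microRNA reads it was 1.74 (1.69 to 1.79), and 0.932 once mir-260 and mir-73, the most abundant microRNAs outside the family in these libraries, were left out of the denominator. For mir-35 there were 7897 reads in eri-1 and 7098 in N2, with ratios of 6.02 (5.83 to 6.21) over non-rRNA reads and 1.92 (1.85 to 1.98) over microRNA reads. For mir-37 there were 1347 and 2366 reads, with ratios of 3.08 (2.88 to 3.29) and 0.980 (0.916 to 1.05). All 6 members with enough reads were called higher over non-rRNA reads, against 96.2% of 26 microRNAs higher and 3.85% lower, and the members' count is no result about the family. Over microRNA reads mir-36, mir-39 and mir-40 were called higher, with ratios from 2.19 to 2.22, against 65.4% higher and 3.85% lower. By the 3′ arm entry alone mir-39 had 298 reads in eri-1 against 306 in N2, and mir-40 had 255 against 272. Neither would then be called higher over microRNA reads. Over all entries, mir-37 alone among the 4 main members took a smaller part of the family in eri-1. Its share was 12.5% (11.9 to 13.1), against 22.2% (21.4 to 22.98) in N2. By the 3′ arm entries mir-39 (5.53% against 5.87%) and mir-40 (4.73% against 5.22%) took a smaller part in eri-1 as well.

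In the NRDE-3 libraries of the UV experiment the members differed from one another. With UV mir-40 had 941 reads (866 CPM), against 664 reads (372 CPM) without UV, with ratios of 2.33 (2.10 to 2.57) over non-rRNA reads and 5.53 (5.00 to 6.11) over microRNA reads. For mir-35 the counts were 325 reads (299 CPM) with UV and 1360 reads (763 CPM) without, with ratios of 0.392 (0.346 to 0.443) and 0.932 (0.823 to 1.05). For mir-37 they were 176 reads (162 CPM) and 936 reads (525 CPM), with ratios of 0.309 (0.261 to 0.363) and 0.733 (0.621 to 0.862). Over non-rRNA reads mir-40 was called higher and mir-35, mir-36 and mir-37 lower, against 19.4% higher and 50.7% lower among 67 microRNAs. By the 3′ arm entry alone mir-41 had 119 reads with UV against 40 without, and would be called higher as well. With 159 reads against 634 in that entry, mir-39 would be called lower. Over microRNA reads mir-38, mir-40, mir-41 and mir-42 were called higher and 0 lower, against 29.9% and 34.3%. The summed ratio was 0.725 (0.692 to 0.761) over non-rRNA reads and 1.72 (1.64 to 1.81) over microRNA reads, so its direction depends on the denominator. These are the libraries with few low counts.

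NRDE-3 libraries were last set against total RNA of the same treatment, and for eri-1 also the same strain. No pull-down from embryos without the tag was analysed here, so RNA that comes along unbound was not measured. In eri-1 without UV the family was lower in the NRDE-3 library on both scales, at 0.0443 (0.0431 to 0.0455) over non-rRNA reads and 0.107 (0.104 to 0.110) over microRNA reads. In eri-1 with UV the ratios were 0.0225 (0.0216 to 0.0234) and 0.201 (0.193 to 0.209). The most abundant members were the lowest. Without UV mir-40 had 664 reads in the NRDE-3 library and 44059 in total RNA, a ratio of 0.0120 (0.0111 to 0.0129) over non-rRNA reads, and mir-35 had 1360 and 41765 reads, a ratio of 0.0259 (0.0245 to 0.0273). With UV the ratios were 0.0233 (0.0219 to 0.0249) for mir-40 and 0.00613 (0.00548 to 0.00684) for mir-35. By contrast mir-41, the rarest member of total RNA, was higher in the NRDE-3 library in both pairs, with 166 reads against 36 without UV (3.66, 2.54 to 5.41) and 198 against 211 with UV (2.70, 2.21 to 3.29), though over all assigned reads, which shift log2 ratios by -1.57 in the UV pair, it would lie below 1 with UV. Of the 166 reads without UV, 126 lay in the hairpin entry. By the 3′ arm entry mir-41 had 40 reads against 19 without UV, and would not be called higher over non-rRNA reads. Without UV 1 of 8 members was called higher and 6 lower over non-rRNA reads, against 38.4% and 45.2% of 73 microRNAs. With UV 1 was higher and 7 lower, against 13.9% and 74.7% of 79. Over microRNA reads the counts were 1 higher and 5 lower without UV, against 45.2% and 35.6%, and 3 higher and 4 lower with UV, against 34.2% and 40.5%.

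In cold-shocked N2 the NRDE-3 library kept mir-35 and mir-40 better than the members next to them. The total library's labels name no transgene, so strain and pull-down cannot be told apart in this pair. There were 7098 reads of mir-35 in the NRDE-3 library (3672 CPM), against 2618 in total RNA (7096 CPM), with ratios of 0.517 (0.495 to 0.541) over non-rRNA reads and 1.85 (1.77 to 1.94) over microRNA reads. For mir-40 there were 508 reads (263 CPM) and 191 reads (518 CPM), with ratios of 0.508 (0.429 to 0.603) and 1.82 (1.54 to 2.16). For mir-39 there were 549 reads (284 CPM) and 3286 reads (8906 CPM), with ratios of 0.0319 (0.0291 to 0.0349) and 0.114 (0.104 to 0.125). Over non-rRNA reads 0 of 6 members were called higher and 4 lower (mir-36, mir-37, mir-38 and mir-39), against 8.7% and 73.9% of 23 microRNAs. Over microRNA reads 0 were higher and 3 lower (mir-36, mir-38 and mir-39), against 17.4% and 56.5%. The summed ratio was 0.231 (0.224 to 0.237) over non-rRNA reads, but 2.51 over all assigned reads, 2.37 with DESeq2 size factors and 2.27 with TMM factors. Over microRNA reads it was 0.825 (0.802 to 0.849), and 1.35 without the most abundant other microRNAs. No direction of the sum is therefore given for this pair.

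**Figure D3:**
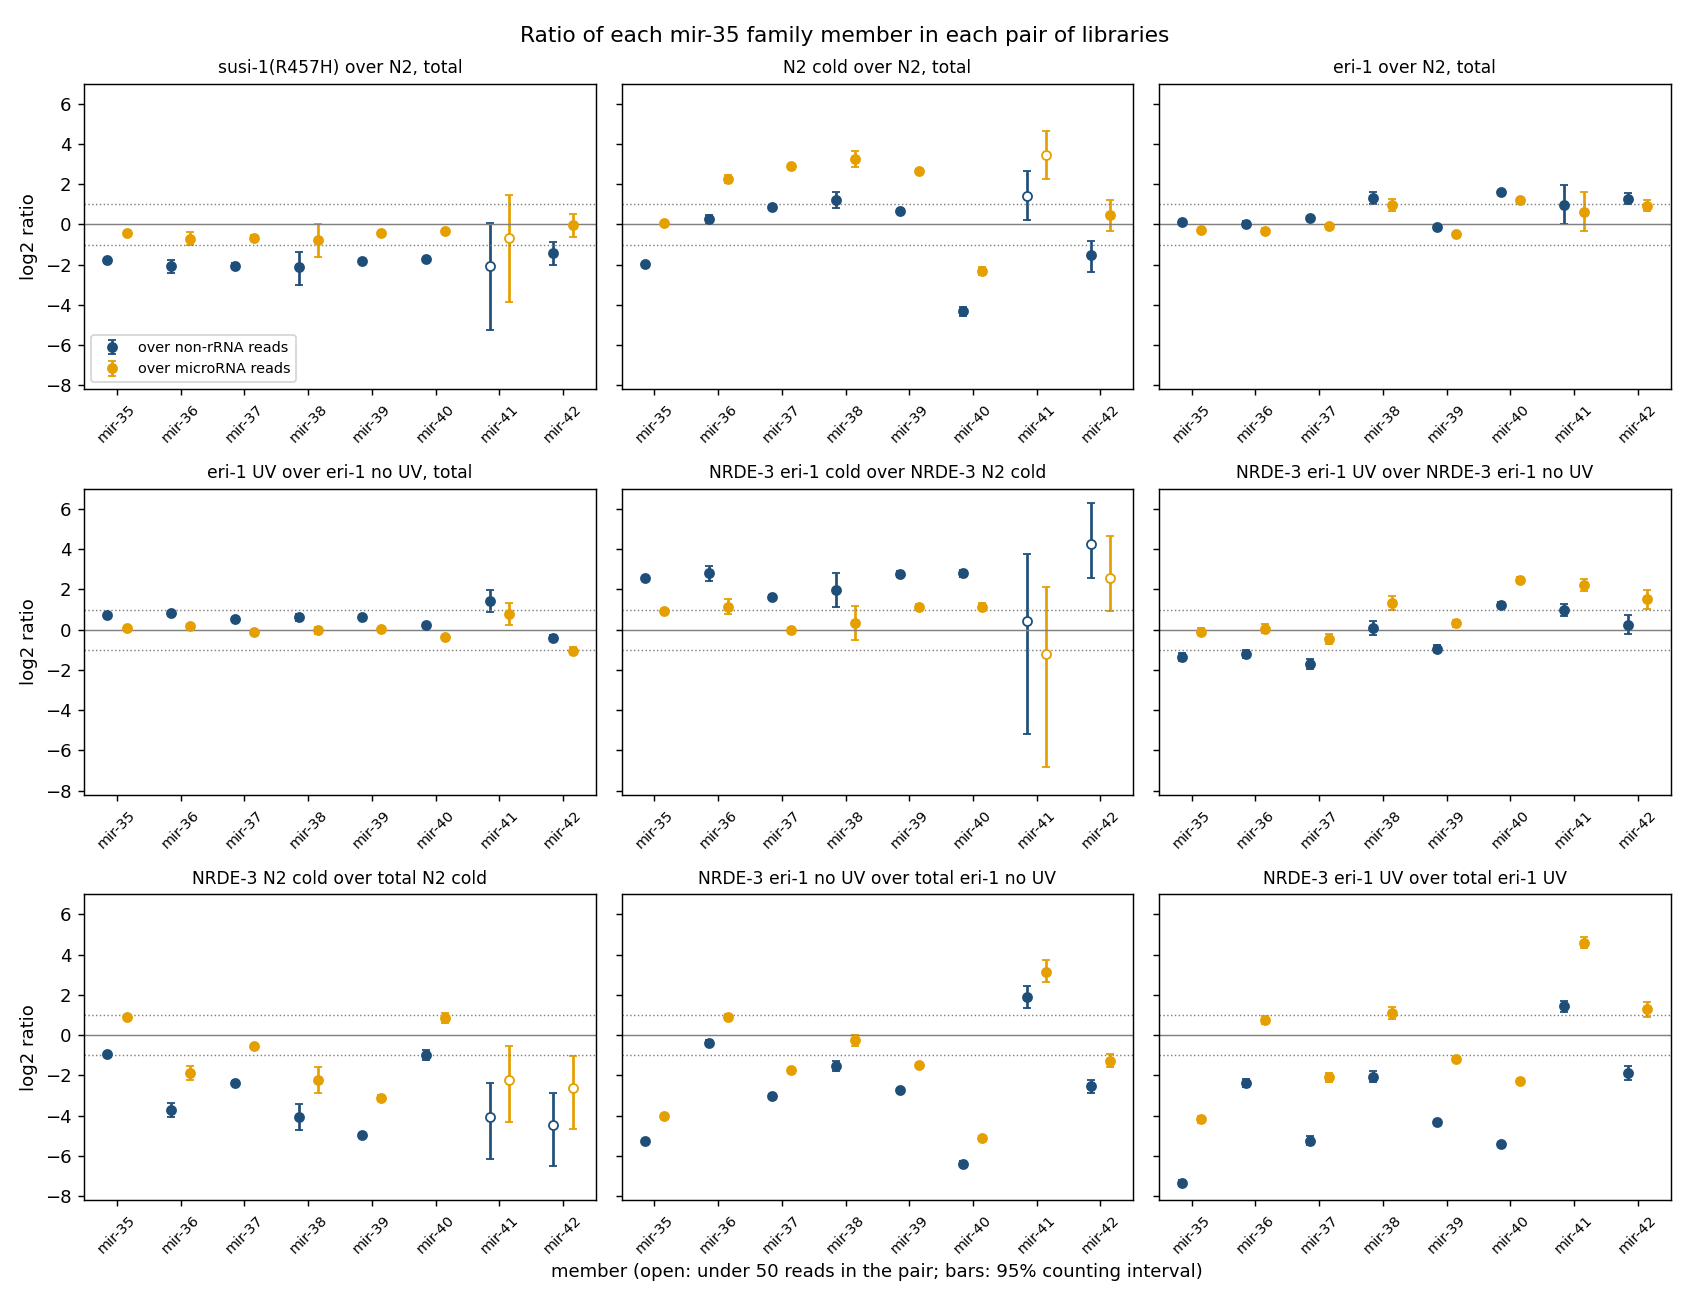
Log2 ratio of each member in each of the 9 pairs of libraries, over non-rRNA reads (blue) and over microRNA reads (orange), with 95% counting intervals, a solid line at no difference and dotted lines at 2-fold. Reads of all 3 entries of a member are summed. In the panel of cold-shocked N2 mir-40 lies below and mir-36 to mir-39 above the line on both scales, and in both eri-1 panels of NRDE-3 over total mir-41 lies above the line.

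Each member has 3 entries in the tables, for the hairpin, the 5′ arm and the 3′ arm, which were summed above. Reads of the 3′ arm far outnumbered those of the 5′ arm. Over the 9 libraries the 5′ arm entries of the family held 212 reads and the 3′ arm entries 252778, so that 0.0838% (0.0729 to 0.0959) of arm reads were of the 5′ arm. For mir-42 the 5′ arm entry held 15 of 48 arm reads in N2 (31.2%), and for mir-39 it held 27 reads beside 3101 (0.863%). The 5′ arm of mir-35 had 0 reads in any library. The hairpin entries held 265007 reads. The sources used here do not say how a read that matches both the hairpin and an arm was assigned, so reads of the hairpin entry cannot be taken as precursor, and the share of the 3′ arm entry may follow that assignment. The 3′ arm entry held 48.8% of the reads of hairpin plus 3′ arm over all libraries. This share was far lower for a few members in susi-1(R457H). It was 11.6% for mir-37 (9.01 to 14.7) in susi-1(R457H), at 61 reads beside 464 in the hairpin entry, against 54.2% (52.6 to 55.8) in N2, at 2008 beside 1695. For mir-40 it was 23.0% (21.1 to 24.9) in susi-1(R457H) and 40.9% (39.998 to 41.8) in N2. For mir-35 it went the other way, at 63.9% (62.6 to 65.2) in susi-1(R457H) and 51.1% (50.6 to 51.7) in N2. In total cold-shocked N2 it was 34.0% for mir-39 (32.4 to 35.7). For microRNAs outside the family the share was taken for whichever arm had more reads, and its median lay between 44.2% and 48.9% in each library. In susi-1(R457H) the middle part of 25 such microRNAs spread from 16.7% to 51.7% (quartiles), and 5 of them lay below mir-37, so low shares were not particular to the family. Counted by the 3′ arm entry alone, mir-37 took 1.37% of the family in susi-1(R457H) and 7.94% in N2, against 5.98% and 7.22% over all entries, and mir-40 took 10.3% and 18.0%, against 22.8% and 21.7%.

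**Figure D4:**
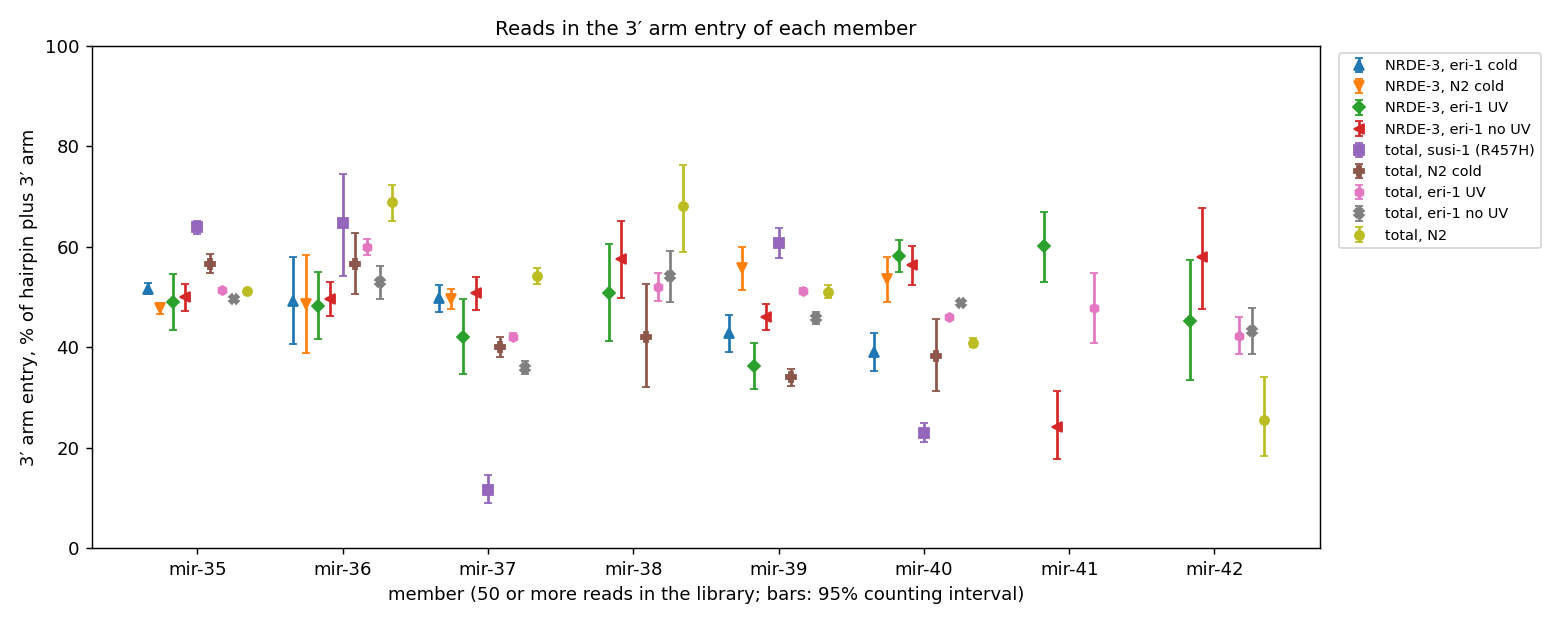
Share of the 3′ arm entry in the reads of the hairpin and 3′ arm entries of each member, in every library where the member had 50 or more reads, with 95% counting intervals. Most points lie near the middle of the axis, and the lowest are mir-37 at 11.6% and mir-40 at 23.0% in susi-1(R457H).

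The cluster neighbours of mir-42 were measured as well. The microRNA mir-43 had 34 reads in total eri-1 with UV, 10 in eri-1 without UV, 4 in N2 and 0 in the other 6 libraries, where a count of 0 allows up to 8.39 CPM. The counts of mir-44 were far higher, at 22890 reads in total eri-1 with UV, 3923 in eri-1 without UV, 201 in susi-1(R457H), 148 in cold-shocked N2 and 1440 in N2. Over non-rRNA reads the ratios of mir-42 and mir-44 were 0.375 and 0.236 in susi-1(R457H) over N2, 0.343 and 0.299 in cold-shocked N2 over N2, and 2.43 and 2.06 in eri-1 over N2, and both were called in the same direction in each. In total eri-1 mir-42 was lower with UV than without UV over microRNA reads (0.485), where the ratio of mir-44 was 1.70. Reads of mir-44 and mir-45 stood at ratios between 0.928 and 1.13 in every library, so the reads of these similar microRNAs may be divided between them and the level of mir-44 alone is uncertain. Of 67 microRNAs outside the family with 200 or more reads over the 9 libraries, the profile of the family sum, as centred log2(CPM over microRNA reads + 1), was matched most closely by mir-44, mir-61 and mir-45. Their root mean square differences were 0.86, 0.86 and 0.87. Next came mir-73 (1.53) and mir-51 (1.59). The members themselves lay from 0.76 for mir-35, the member with the most reads, to 3.12 for mir-41. The same 5 were not all kept over non-rRNA reads, where 3 of them (mir-44, mir-61 and mir-45) were again among the 5 nearest. On that scale mir-793 (0.79) and mir-250 (0.83), with 286 and 349 reads over all libraries, came before them. There mir-73 ranked 10 and mir-51 ranked 13.

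The comparison lists held microRNA pathway genes and targets of the family, measured by antisense reads, which in this assay are mostly siRNAs made on a messenger RNA and do not measure its level. Of 17 pathway genes 16 were matched by name, and all 4 targets were. The most reads fell on xrn-2, an exonuclease that degrades mature microRNAs, with 477 antisense reads in total eri-1 with UV, 211 in eri-1 without UV, 58 in susi-1(R457H), 3 in cold-shocked N2 and 254 in N2. Over non-rRNA reads its ratio was 0.386 (0.285 to 0.515) in susi-1(R457H) against N2. In the NRDE-3 libraries after cold shock xrn-2 had 184 reads in eri-1 and 47 in N2. The next were lin-66, a repressor of lin-28, with 195 and 47 reads in those NRDE-3 libraries, and the microRNA Argonaute alg-1, with 161 and 74. In that pair all 10 pathway genes and both targets with 50 reads, sup-26 and nhl-2 (which is on both lists), were called higher in eri-1, beside 88.6% of 1280 protein-coding genes higher and 10% lower, so the count is near the background. DESeq2 size factors shift log2 ratios of this pair by -3.44. With them xrn-2, at a ratio of 21.2 over non-rRNA reads, alg-1, at 11.8, and tsn-1, at 10.8, would no longer be called. The other pathway genes called, from lin-66 at 22.4 upward, and both targets would still be called higher. In total eri-1 with UV 5 of 14 pathway genes and 1 of 3 targets were called higher than without UV and 0 lower, beside 18.9% and 0.368% of 3802 protein-coding genes. In total eri-1 against N2 4 of 9 pathway genes were lower and 0 higher, beside 21.8% and 3.23% of 2167, and 2 of 3 were lower in susi-1(R457H), beside 71.1% lower and 2.19% higher of 1368. In cold-shocked N2 1 of 2 was higher than in N2 (drsh-1, the nuclease Drosha, with 64 reads against 14) and 1 lower (xrn-2), beside 3.5% and 94.3% of 1143. In the NRDE-3 libraries over total RNA, 1 of 3 was higher and 1 lower in cold-shocked N2, beside 65.9% and 14% of 458. In eri-1 without UV 0 of 3 were higher and 2 lower, beside 11.5% and 84.3% of 1154, and in eri-1 with UV all 13 were lower, beside 7.13% higher and 89.9% lower of 3214. Of the targets, egl-1 had at most 7 antisense reads in a library, and sup-26 had 171 in total eri-1 with UV and 0 without UV. In the NRDE-3 libraries of eri-1 with and without UV, 18 of these 19 genes had 0 antisense reads, and ain-2 had 0 with UV and 61 without, the 1 pathway gene that reached 50 reads, beside 56.2% higher and 38.4% lower of 534 protein-coding genes.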

How the data were processed

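Per the file headers, the deposited tables hold counts of reads per entry, sense and antisense, as whole numbers. The submitters' processing notes name Bowtie2, without version or role. The sources used here give neither a genome build nor an annotation, nor how the authors treated reads that match more than 1 place. Counts of entries were summed per gene, and sense reads were used for microRNAs. Positions and names came from the Ensembl annotation of WBcel235, matched by WormBase ID, and 1 listed gene, ntl-1, matched no name. The microRNA mir-48 and the 5 tail libraries were not analysed here. The members, lists, rules for calls and for named genes were chosen with earlier results of these data known. Genes named were the 8 members, mir-43, mir-44, the top other microRNA of each library, the 5 nearest in profile and the 3 pathway or target genes with the most antisense reads. Others named with values (mir-1, let-7, mir-45, drsh-1, egl-1, sup-26, nhl-2, ain-2 and tsn-1) were chosen after their values were seen. Exact binomial (Clopper-Pearson) intervals used SciPy 1.17.1, and ratios were conditional binomial. Scaling factors came from DESeq2 1.42.0 and edgeR 4.0.16 and used reads of both strands of genes other than rRNA. No count model was fitted, since each group had 1 library. The rule of size was tested on simulated counts for 8 of the 9 pairs. The simulated counts held counting error alone at a known scaling. They therefore cannot show how the rule fares with differences between cultures, PCR duplication or shared reads. A first change of the DESeq2 input to reads of 1 strand per class was made after the results had been seen, so the planned input was restored and the other is given as an added alternative.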

Additional observations from a re-analysis of the deposited data

Results flagged for a closer look

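The family's difference between eri-1 with and without UV ran in opposite directions in total RNA and in the NRDE-3 library. Over non-rRNA reads the ratio was 1.43 in total RNA and 0.725 in the NRDE-3 library, and over microRNA reads it was 0.919 and 1.72. The difference between these was not tested, since each group had 1 library, and the NRDE-3 libraries are those with few low counts.

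Antisense reads on the members stood above the 3 reads that a count of 0 allows in a few libraries. On mir-37 there were 7 in the NRDE-3 library of eri-1 after cold shock, 9 in that of cold-shocked N2, 9 in total eri-1 with UV and 5 in total eri-1 without UV. The non-coding RNA Y62F5A.14, which overlaps mir-37 on its strand, had 6, 8, 8 and 3 antisense reads in the same libraries. On mir-38 there were 21 in the NRDE-3 library of eri-1 after cold shock, beside 22 sense reads, and 6 in total eri-1 with UV. On mir-40 there were 4 in total eri-1 with UV. N2 had 2 antisense reads on mir-37 and 0 on mir-38 and mir-40. Over all members the antisense reads came to at most 0.269% of the family in a library. Antisense reads on mir-37, mir-38 and mir-40 lie on the strand of Y62F5A.9, whose span holds these genes, and their origin was not tested.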

How the results depend on the processing

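No paired analysis was possible because each group had 1 library, and no replicate could be left out for the same reason. Counting antisense reads as well moved 1 share of a member in the family beyond its counting interval and left 71 within, while the 3′ arm entries alone moved 49 and left 23 within. Family ratios depend on scaling, and in what follows the pairs are given in the order susi-1(R457H), cold-shocked N2 and eri-1 over N2, total eri-1 with over without UV, cold-shocked NRDE-3 eri-1 over NRDE-3 N2, NRDE-3 eri-1 with over without UV, and NRDE-3 over total for cold-shocked N2, eri-1 without UV and eri-1 with UV. Over all assigned reads they were 0.168, 0.127, 1.18, 3.28, 0.706, 0.449, 2.51, 0.0554 and 0.00758. With DESeq2 size factors they were 0.271, 0.419, 1.45, 1.75, 0.505, 0.670, 2.37, 0.0274 and 0.0109, and with TMM 0.263, 0.409, 1.37, 1.77, 0.546, 0.677, 2.27, 0.0295 and 0.0106. The NRDE-3 pair after cold shock and NRDE-3 over total in cold-shocked N2 were reversed in all 3. DESeq2 factors from 1 strand per class, an alternative chosen after seeing the data, gave 0.513, 1.38, 1.97, 1.27, 0.425, 0.623, 0.604, 0.223 and 0.0316, which reversed cold-shocked N2 and the NRDE-3 pair after cold shock. These factors rest on genes with a median of 12 to 158 reads in a pair. Against non-rRNA reads, the 1-strand factors shifted log2 ratios by -3.68 to 2.33, and microRNA reads shifted them by -1.65 to 3.16. The 3′ arm entries alone, also added, gave 0.298, 0.438, 1.46 and 1.45 for the first 4 pairs and 0.261 for NRDE-3 over total in cold-shocked N2. The ratio over microRNA reads, taken over microRNAs outside the family, was 0.695, 3.04, 1.22, 0.890, 3.54 for the first 5 pairs and 0.705, 0.0794 and 0.157 for the last 3. Without the most abundant other microRNAs it was 0.773 and 1.96 for the first pairs, 0.898 for UV in total eri-1, 0.932 and 1.47 for the NRDE-3 pairs, and 1.35, 0.170 and 0.275 for NRDE-3 over total. Moving members from non-rRNA to microRNA reads left 0 lower in susi-1(R457H), 4 higher and 1 lower after cold shock, 1 higher in eri-1, and 0 higher and 1 lower with UV. In the NRDE-3 libraries it left 3 higher after cold shock, 4 higher and 0 lower with UV, and 3 higher and 4 lower for NRDE-3 over total in eri-1 with UV. Members reversed by that move were mir-35 (1.05) and mir-42 (1.40) in cold-shocked N2, mir-37 (0.980) in the NRDE-3 pair after cold shock, mir-36 (1.04) in the NRDE-3 pair with UV, and mir-36 (1.71), mir-38 (2.15) and mir-42 (2.44) for NRDE-3 over total in eri-1 with UV. With DESeq2 size factors the members of the NRDE-3 pair after cold shock were reversed to 0.556 (mir-35), 0.645 (mir-36), 0.285 (mir-37), 0.367 (mir-38), 0.635 (mir-39) and 0.645 (mir-40), and mir-37 for NRDE-3 over total in cold-shocked N2 to 1.99. A minimum of 20 reads, or none, gave 2 members higher after cold shock. The profiles nearest to the family shared 3 of 5 microRNAs over non-rRNA reads. The cause of these changes was not tested.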
